A study of Bos taurus with 6 samples.

Results

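Rumen microbes ferment plant fibre to acetate, propionate and butyrate, the short-chain fatty acids that the rumen epithelium absorbs and uses as its main fuel. At the pH of the rumen these acids are mostly anions, which cross a membrane only with the help of a carrier. Proton-coupled monocarboxylate transporters of the SLC16 family carry them together with a proton, a sodium-coupled carrier (SLC5A8) carries them with sodium, and anion exchangers of the SLC26 family trade anions such as chloride and bicarbonate across the membrane. Basigin (BSG) and embigin (EMB) are single-pass membrane proteins that bring monocarboxylate transporters to the cell surface, and the G protein-coupled receptors FFAR2 and FFAR3 sense short-chain fatty acids outside the cell.

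The genes examined were 10 members of this system, picked out by gene name with earlier results of these data known: the carriers SLC16A1, SLC16A3, SLC16A4, SLC5A8, SLC26A3 and SLC26A6, the ancillary proteins BSG and EMB, and the receptors FFAR2 and FFAR3. They make up 10 of the 32183 genes in the expression tables, and each had a single row. RNA-seq was performed on 6 cultures of rumen epithelial primary cells (REPC) of Bos taurus, of which 3 were controls and 3 had received 5 mM butyrate in their medium for 24 h. All cells came from a Holstein bull calf aged 2 weeks that had been given milk replacer and no other feed. With a single animal behind the cultures, p-values measure the spread between cultures and not between animals.

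Expression was given as FPKM, the fragments counted per length of transcript and per size of the library, an estimate per gene and culture with lower and upper bounds. FPKM summed over all genes to between 678035 and 681912 in the control cultures and to between 619401 and 629037 in the butyrate cultures, and the number of genes above 0 was 16051 to 16193 and 17306 to 17510, respectively. The number of fragments behind a value was not listed, so it was approximated from the bounds, taken as 2 SD of counting error on either side. At low FPKM the bounds cannot be counting error alone. For SLC16A4 the approximation gave 0.925 fragments at 0.126 FPKM in control replicate 1, but 0.00437 at 0.00951 FPKM in control replicate 2. Low fragment numbers are thus rough. Differences were tested with limma on log2(FPKM + 0.1) over the 15813 genes whose mean FPKM reached 0.1. A gene is said to have risen or fallen where its p, adjusted over all these genes by the Benjamini-Hochberg (BH) method, was under 0.05. A gene is called a differentially expressed gene (DEG) under stricter cutoffs, which are those of the study's methods. The limma p, after Bonferroni correction, had to be under 0.05, with the log2 fold change beyond 2 in either direction. Only the cutoffs were taken from the study, which used Cufflinks for its own DEGs. The DEG calls and shares given here are thus not those of the study.

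Of the 10 members, 5 reached the mean FPKM of 0.1 and were tested. Among these, SLC16A3, BSG and EMB rose, SLC16A1 fell, and SLC26A6 did not pass the test. Over all genes tested, 32.5% rose and 25.9% fell, so calls as such were common in this comparison. A single member, SLC16A3, was a DEG, in the higher direction, against 2.46% of all genes tested. No member was a DEG in the lower direction, against 1.51% of all genes tested, although limma with BH adjustment called 1 member lower. The median log2 fold change was 0.53 over the 5 tested members and 0.10 over all genes tested. Since RNA was taken from whole cultures, a change in the make-up of the cells and a change in RNA per cell cannot be told apart in any of these values.

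**Figure D1:**
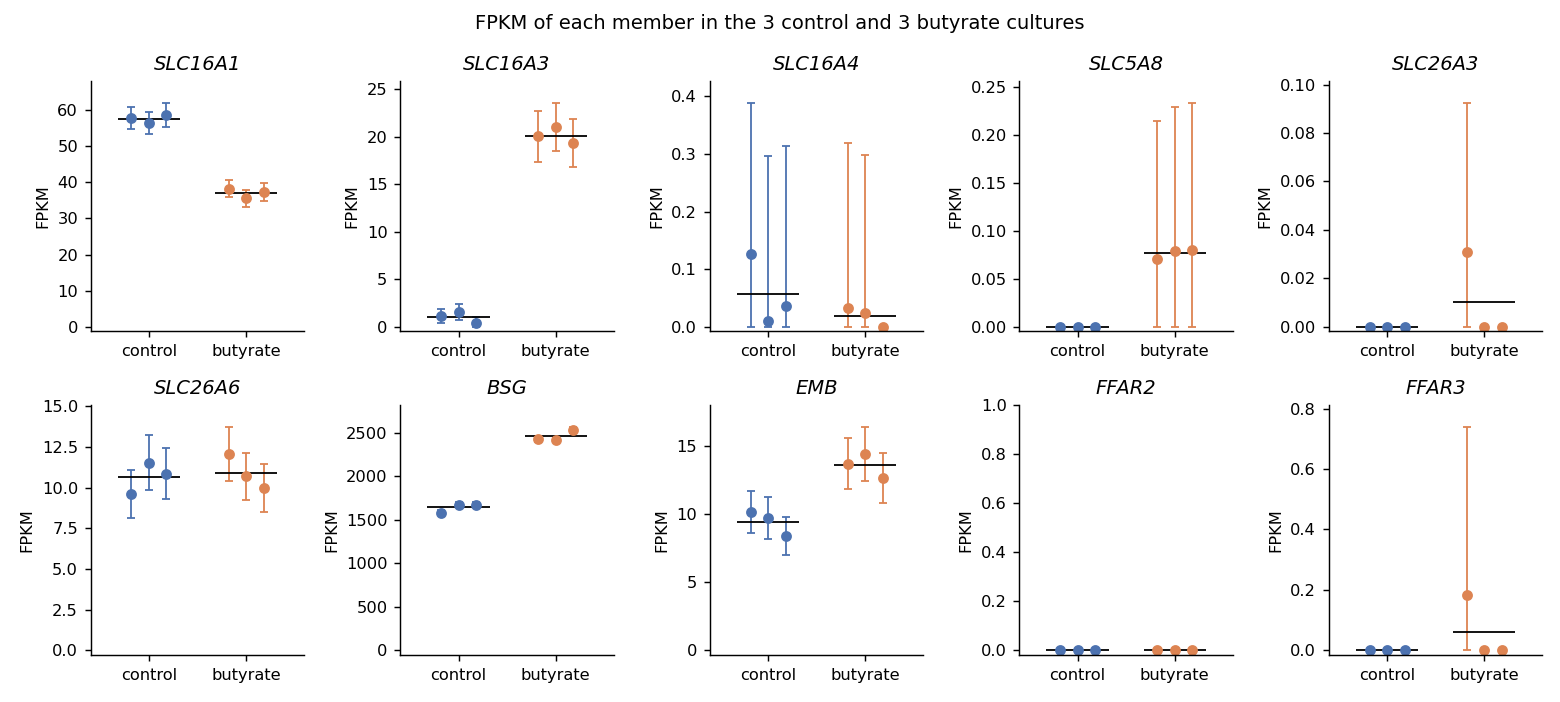
FPKM of each of the 10 members in the 3 control and the 3 butyrate cultures, 1 panel per gene, with a point per culture, whiskers for its lower and upper bounds (from that culture alone), a line for the group mean, and a separate linear axis for each gene. The control and butyrate cultures lie apart for SLC16A1, SLC16A3, BSG and EMB, overlap for SLC26A6, and lie at or near 0 for the other 5 genes. Among the latter, the SLC5A8 points also lie apart on their own axis, at 0 in control and 0.0702 to 0.0802 after butyrate, with lower bounds of 0.

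SLC16A1 encodes MCT1, a proton-coupled monocarboxylate transporter found in most tissues and the monocarboxylate transporter most often described in rumen epithelium. It spans chr3:30533845-30566204 of the UMD3.1 assembly. Its FPKM was 57.8, 56.4 and 58.6 in the control cultures and 38.3, 35.6 and 37.4 in the butyrate cultures. Every butyrate culture was below every control culture. Control cultures averaged 57.6 ± 1.12 and butyrate cultures 37.1 ± 1.37 (SD, n = 3 each), and these values rested on roughly 1272 to 1361 fragments per control culture and 907 to 995 per butyrate culture. SLC16A1 fell, with a log2 fold change of -0.64 (SE 0.05, 95% confidence interval -0.76 to -0.51), which is 1.55-fold lower (limma, BH-adjusted p = 1.65e-05). Its rank by FPKM among all genes went from 1974 to 2002 in the control cultures to 2656 to 2860 in the butyrate cultures.

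SLC16A3 encodes MCT4, a proton-coupled carrier best known for exporting lactate from highly glycolytic cells. The gene lies at chr19:51243972-51256022. Its FPKM was 1.18, 1.55 and 0.438 in the control cultures and 20.04, 21.0 and 19.3 in the butyrate cultures. All butyrate cultures were above all control cultures, and the bounds did not meet, since the highest upper bound in a control culture was 2.36 and the lowest lower bound in a butyrate culture was 16.8. The mean was 1.05 ± 0.564 (SD, n = 3) in control and 20.1 ± 0.856 (SD, n = 3) after butyrate. The control values were thinly covered, with roughly 10.2, 14.4 and 2.55 fragments, while the butyrate values rested on 228, 287 and 239.

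The log2 fold change of SLC16A3 was 4.28 (SE 0.36, 95% confidence interval 3.46 to 5.10), a 19.4-fold rise on the scale of FPKM + 0.1 (limma, BH-adjusted p = 1.39e-05, Bonferroni-adjusted p = 0.0235). Of the 15813 genes tested, 108 had a larger log2 fold change. Its rank by FPKM among all genes went from 10694 to 12754 in control to 4198 to 4370 after butyrate. The DEG call, though not the rise, was lost in several fits that left out a culture. In such fits the higher DEGs over all genes also went from 389 to between 156 and 337. With limma, the Bonferroni-corrected p was 0.595 without butyrate replicate 1, 0.830 without butyrate replicate 2, 0.574 without butyrate replicate 3 and 0.184 without control replicate 1, while the log2 fold change stayed between 3.80 and 4.61 in the fits that left out a culture. With a pseudocount of 1 it was 3.40.

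Both carriers move the same kind of cargo, so their balance was compared within each culture, where the scaling of the library cancels in FPKM as listed. The added 0.1 does not scale with the library, so on FPKM + 0.1 the scaling cancels only in part. The log2 ratio of SLC16A3 to SLC16A1, computed on FPKM + 0.1, was -5.50, -5.10 and -6.77 in the control cultures and -0.93, -0.76 and -0.95 in the butyrate cultures. In FPKM as listed, SLC16A1 stood at 36.5 to 134 times SLC16A3 in control cultures and at 1.69 to 1.93 times after butyrate. The mean ratio was -5.79 ± 0.872 (SD, n = 3) before and -0.88 ± 0.106 (SD, n = 3) after butyrate, a difference of 4.91 with no overlap between groups (two-sided exact permutation test, p = 0.1, the smallest that 3 against 3 cultures can give). With a pseudocount of 1 in place of 0.1 the difference was 4.03.

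The sum of both transcripts was a quantity chosen after the values had been seen. In FPKM it was 58.9, 58.0 and 59.1 in control cultures and 58.3, 56.6 and 56.7 after butyrate, with means of 58.7 ± 0.603 and 57.2 ± 0.954 (SD, n = 3 each). The difference in summed FPKM was -1.47 (two-sided exact permutation test, p = 0.2), and it turned to 5.35 when the values were rescaled to TPM, which sums to the same total in each culture, where the means were 86.3 and 91.6 (two-sided exact permutation test, p = 0.1). SLC16A3 made up 2.0005%, 2.67% and 0.741% of the summed FPKM in the control cultures and 34.4%, 37.2% and 34.1% in the butyrate cultures.

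**Figure D2:**
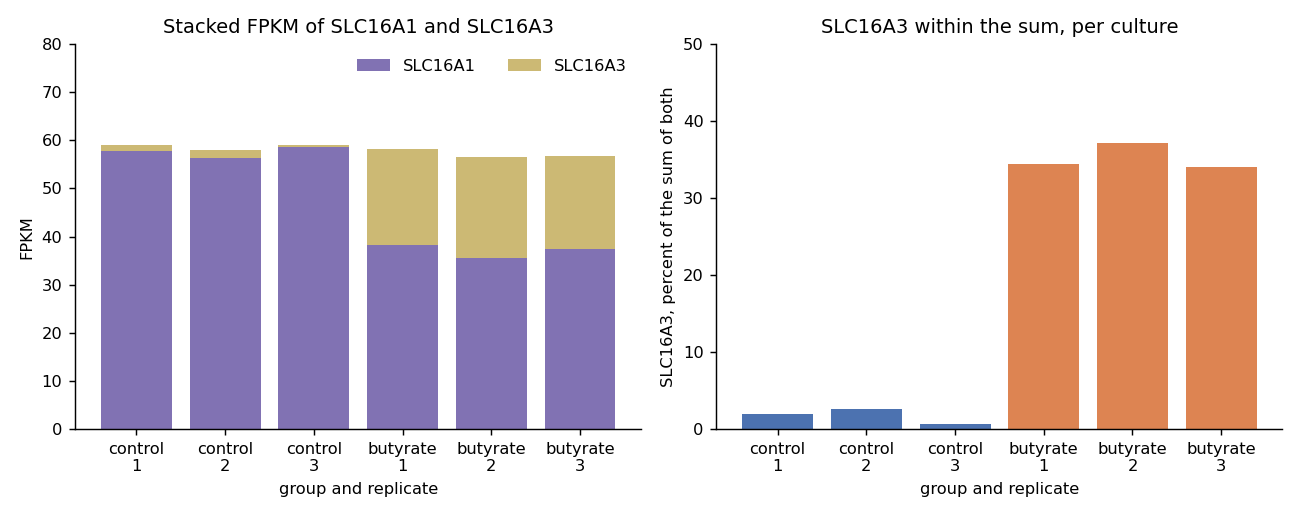
Left, FPKM of SLC16A1 and SLC16A3 stacked for each of the 6 cultures on a linear axis from 0. Right, the share of SLC16A3 in that sum, in percent, with a bar per culture from 0. The stacks are of similar height, from 56.6 to 59.1 FPKM, while the SLC16A3 portion is 0.741% to 2.67% in control and 34.1% to 37.2% after butyrate.

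SLC16A4, a relative of both whose cargo is poorly known, lies on the same chromosome as SLC16A1, at chr3:33152520-33183135. It was barely covered, with FPKM of 0.126, 0.00951 and 0.0360 in control cultures and 0.0330, 0.0240 and 0 after butyrate. By the rough approximation from the bounds, each was worth less than a single fragment. The groups overlapped and the gene was below the level needed for a test.

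BSG, which encodes basigin (CD147), the usual surface partner of MCT1 and MCT4, spans chr7:44816940-44823915. It was the most abundant member by far. Its FPKM was 1584, 1675 and 1675 in the control cultures and 2431, 2424 and 2537 in the butyrate cultures. The groups did not overlap, at 1645 ± 52.5 in control and 2464 ± 63.1 after butyrate (mean ± SD, n = 3 each). BSG rose 1.498-fold, a log2 fold change of 0.58 (SE 0.04, 95% confidence interval 0.50 to 0.67, limma, BH-adjusted p = 2.39e-06). It ranked 33 to 38 among all genes by FPKM in control and 15 to 16 after butyrate, and its share of the summed FPKM went from between 0.234% and 0.246% to between 0.388% and 0.403%.

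EMB encodes embigin, a relative of basigin best known as a partner of MCT2 (SLC16A7), and spans chr20:28680500-28785470. The FPKM of EMB was 10.2, 9.70 and 8.39 in control cultures and 13.7, 14.4 and 12.7 in butyrate cultures. Again the groups did not overlap, with means of 9.41 ± 0.918 and 13.6 ± 0.879 (SD, n = 3 each). EMB rose 1.44-fold, a log2 fold change of 0.53 (SE 0.10, 95% confidence interval 0.29 to 0.77, limma, BH-adjusted p = 0.00215).

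The proportion of the ancillary pair was compared in the same way. BSG stood at 156 to 199.7 times EMB in control cultures and at 168 to 199.9 times after butyrate, in FPKM as listed. The log2 ratio of EMB to BSG on FPKM + 0.1 averaged -7.44 ± 0.178 and -7.49 ± 0.128 (SD, n = 3 each), and the difference of -0.05 was smaller than the spread between cultures (two-sided exact permutation test, p = 0.7).

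SLC26A6 encodes PAT1, an exchanger of chloride, bicarbonate and oxalate, and spans chr22:51821373-51832170. Its FPKM was 9.61, 11.5 and 10.9 in the control cultures and 12.1, 10.7 and 9.97 in the butyrate cultures. The ranges overlapped, the means were 10.7 ± 0.979 and 10.9 ± 1.07 (SD, n = 3 each), and the log2 fold change was 0.03 (SE 0.11, 95% confidence interval -0.22 to 0.28, limma, BH-adjusted p = 0.817).

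SLC26A3, known as DRA, a chloride/bicarbonate exchanger of the intestinal surface, spans chr4:49058939-49092515. It was listed at 0 in every culture but butyrate replicate 1, where the FPKM was 0.0307, worth about 1.00 fragment. At this depth nothing can be said of a difference between the groups.

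SLC5A8, or SMCT1, the sodium-coupled carrier of butyrate and other monocarboxylates in the colon, spans chr5:65386934-65454111. It was listed at 0 in the 3 control cultures and at 0.0702, 0.0790 and 0.0802 FPKM in the 3 butyrate cultures. The groups did not overlap, but these values came from about 0.950, 1.11 and 1.11 fragments, with lower bounds of 0 and upper bounds reaching 0.232. Of the 14213 genes listed at 0 in all control cultures, 458 (3.22%) were above 0 in all butyrate cultures. In the opposite direction, 51 of 13044 genes (0.391%) were at 0 in all butyrate cultures and above 0 in all control cultures. More genes were thus detected in the butyrate libraries, and the part of this in the SLC5A8 values was not tested.

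FFAR2 (chr18:46312163-46314915), which couples to both Gi and Gq, was listed at 0 in all 6 cultures, as were 12083 (37.5%) of all genes. FFAR3 (chr18:46244900-46250297), which couples to Gi, lies in the same stretch of the chromosome and was listed at 0 in 5 cultures. In butyrate replicate 1 its FPKM was 0.184, with an upper bound of 0.739. By the rough approximation from the bounds, this was worth 0.439 of a fragment. FFAR2 transcripts were thus not detectable at this depth, and FFAR3 was too thinly covered to compare the groups. FFAR1, a receptor of longer fatty acids 169 bases from FFAR3, was likewise listed at 0 throughout.

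The order of the members by FPKM, which is per length of transcript, changed in its middle. In control cultures BSG stood 28.6-fold above SLC16A1, which stood 5.398-fold above SLC26A6. SLC26A6 and EMB came next with overlapping ranges, followed by SLC16A3, which was 8.93-fold below EMB. After butyrate BSG was 66.5-fold above SLC16A1, and SLC16A3 had moved to the third place, 1.84-fold below SLC16A1 and 1.48-fold above EMB, with no overlap between neighbours. EMB was 1.25-fold above SLC26A6 and the ranges no longer overlapped. SLC16A4, SLC5A8, SLC26A3, FFAR2 and FFAR3 stayed at the bottom in both groups with means under 0.1 FPKM.

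**Figure D3:**
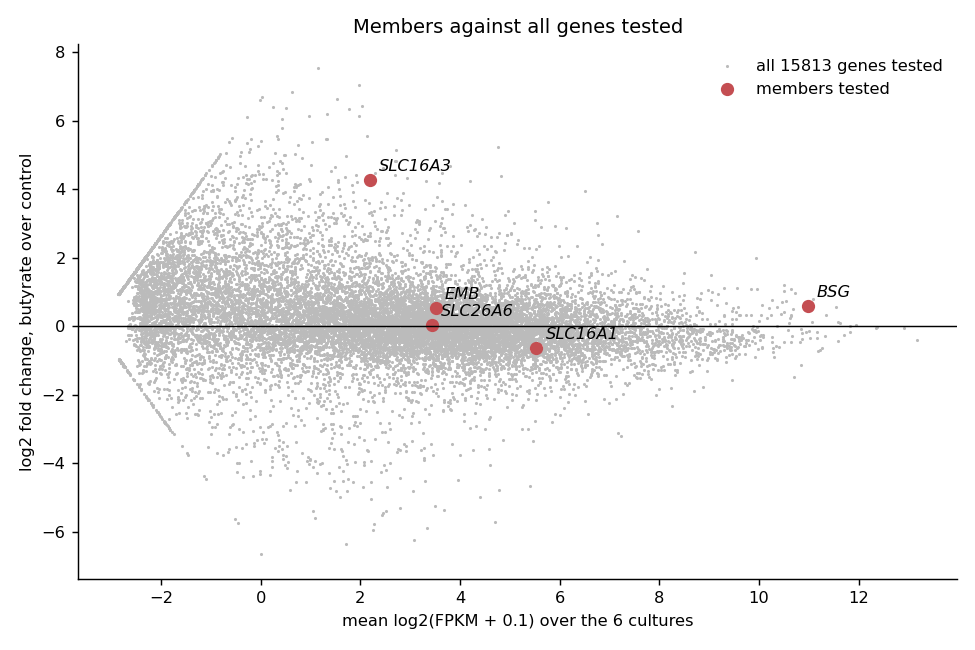
Log2 fold change of butyrate over control against mean log2(FPKM + 0.1) for the 15813 genes tested (grey points) and the 5 tested members (red and named). SLC16A3 lies high, at 4.28, BSG lies at the far right with 0.58, and EMB (0.53), SLC26A6 (0.03) and SLC16A1 (-0.64) lie within the grey cloud.

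Neighbouring genes can share fragments with a member. SLC16A1 lies wholly inside the span of the uncharacterised LOC101901998, which was listed at 0 in 5 cultures and at 0.204 FPKM in butyrate replicate 3. SLC16A3 overlaps CSNK1D, a casein kinase gene, by 20 bases, and CSNK1D ranged from 25.2 to 27.5 FPKM in control and from 21.5 to 25.4 after butyrate. The sources used here do not say whether counting used strand, so fragments of an overlapping pair cannot be told apart. BSG was the member with the smallest p. Among genes with a name other than a LOC number, the patterns over the 6 cultures most like its own were those of FAM193A, SLC4A2 and RABEPK. Their Euclidean distances were 0.0584, 0.0810 and 0.0908 on the centred log2 scale. FAM193A was low, at 0.296, 0.314 and 0.303 FPKM in control cultures and 0.508, 0.505 and 0.544 after butyrate.

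Lists of related genes give the surroundings of the members. Of 52 genes on them, 50 were found by name and 33 were tested, of which 15 rose, 5 fell and 13 did not pass, with a median log2 fold change of 0.53 beside 0.10 for all genes. The 15 include SLC26A10 and SLC4A8, which reached the level for a test only through the butyrate cultures. Of the 33 tested genes, 2 were DEGs, both higher, where 2.46% of all genes tested were DEGs in that direction. None was a DEG in the lower direction, against 1.51% of all genes tested, while limma with BH adjustment called 5 lower. Over all genes tested, 32.5% rose and 25.9% fell, the shares to set beside the counts of each list that follows.

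Among 12 other monocarboxylate transporters 7 were tested, and 2 rose, none fell and 5 did not pass, with a median log2 fold change of 0.39. SLC16A11, which is linked to lipid metabolism, went from 7.04, 6.49 and 8.29 FPKM to 53.3, 55.5 and 48.2, a log2 fold change of 2.83, and was a DEG. The groups lay apart, and after butyrate SLC16A11 stood above SLC16A1 in FPKM.

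Of 9 other SLC26 exchangers 5 were tested, and 4 rose and 1 did not pass, with a median log2 fold change of 1.78. SLC26A7 had a log2 fold change of 1.87, SLC26A10 of 1.85 and SLC26A2, the sulfate transporter, of 1.78. SLC26A2 was the best covered of these, at 5.77, 5.65 and 5.19 FPKM in control cultures and 20.6, 19.7 and 17.7 after butyrate. SLC26A7 and SLC26A10 were low, at means of 0.330 and 0.0301 FPKM in control and 1.43 and 0.355 after butyrate. SLC26A10 was below 0.1 FPKM in control and reached the level for a test only through the butyrate cultures. Its call as risen is thus not independent of that filter. The pseudocount of 0.1 also weighs on its fold change.

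Of 10 SLC4 bicarbonate transporters 7 were tested, and 3 rose and 4 did not pass, with a median log2 fold change of 0.58. SLC4A11, a borate transporter homologue that conducts protons and water, went from 0.166, 0.182 and 0.173 FPKM to 6.26, 5.44 and 6.31, a log2 fold change of 4.48, and was a DEG. SLC4A8 had a log2 fold change of 1.28, at FPKM below 0.4, and SLC4A2, the housekeeping anion exchanger AE2, had 0.58. With means of 0.0547 FPKM in control and 0.268 after butyrate, SLC4A8 reached the level for a test only through the butyrate cultures.

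Of the receptors of other fatty and hydroxy acids, 5 of 6 were found by name and none reached the level for a test. FFAR1, FFAR4 and OR51E2 were listed at 0 throughout, HCAR1 at 0.145 and 0.133 FPKM in 2 butyrate cultures and at 0 elsewhere, and GPR84 at no more than 0.198. The G proteins and arrestins that act downstream of such receptors were present. Of these 7 genes 4 rose, 1 fell and 2 did not pass. ARRB1, an arrestin, had a log2 fold change of 1.42, GNAQ, the Gq alpha subunit, of -0.94, and GNAI2, a Gi alpha subunit, of 0.82, with GNAI2 at 151, 152 and 162 FPKM in control cultures and 284, 265 and 271 after butyrate.

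Of 5 genes of lactate and pyruvate handling 3 fell, 1 rose and 1 did not pass, where 25.9% of all genes tested fell, with a median log2 fold change of -0.27. MPC1, a subunit of the mitochondrial pyruvate carrier, went from 140.02, 135 and 149 FPKM to 68.6, 64.1 and 72.5, a log2 fold change of -1.05. LDHB, a lactate dehydrogenase subunit, had -0.50, and NPTN, or neuroplastin, the third partner protein of the basigin family, had 0.77. Of the other organic anion routes 2 of 3 were found by name, and SLCO2A1, the prostaglandin transporter, rose by a log2 fold change of 2.79 while ABCG2, an efflux pump, fell by 0.28 on the log2 scale.

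**Figure D4:**
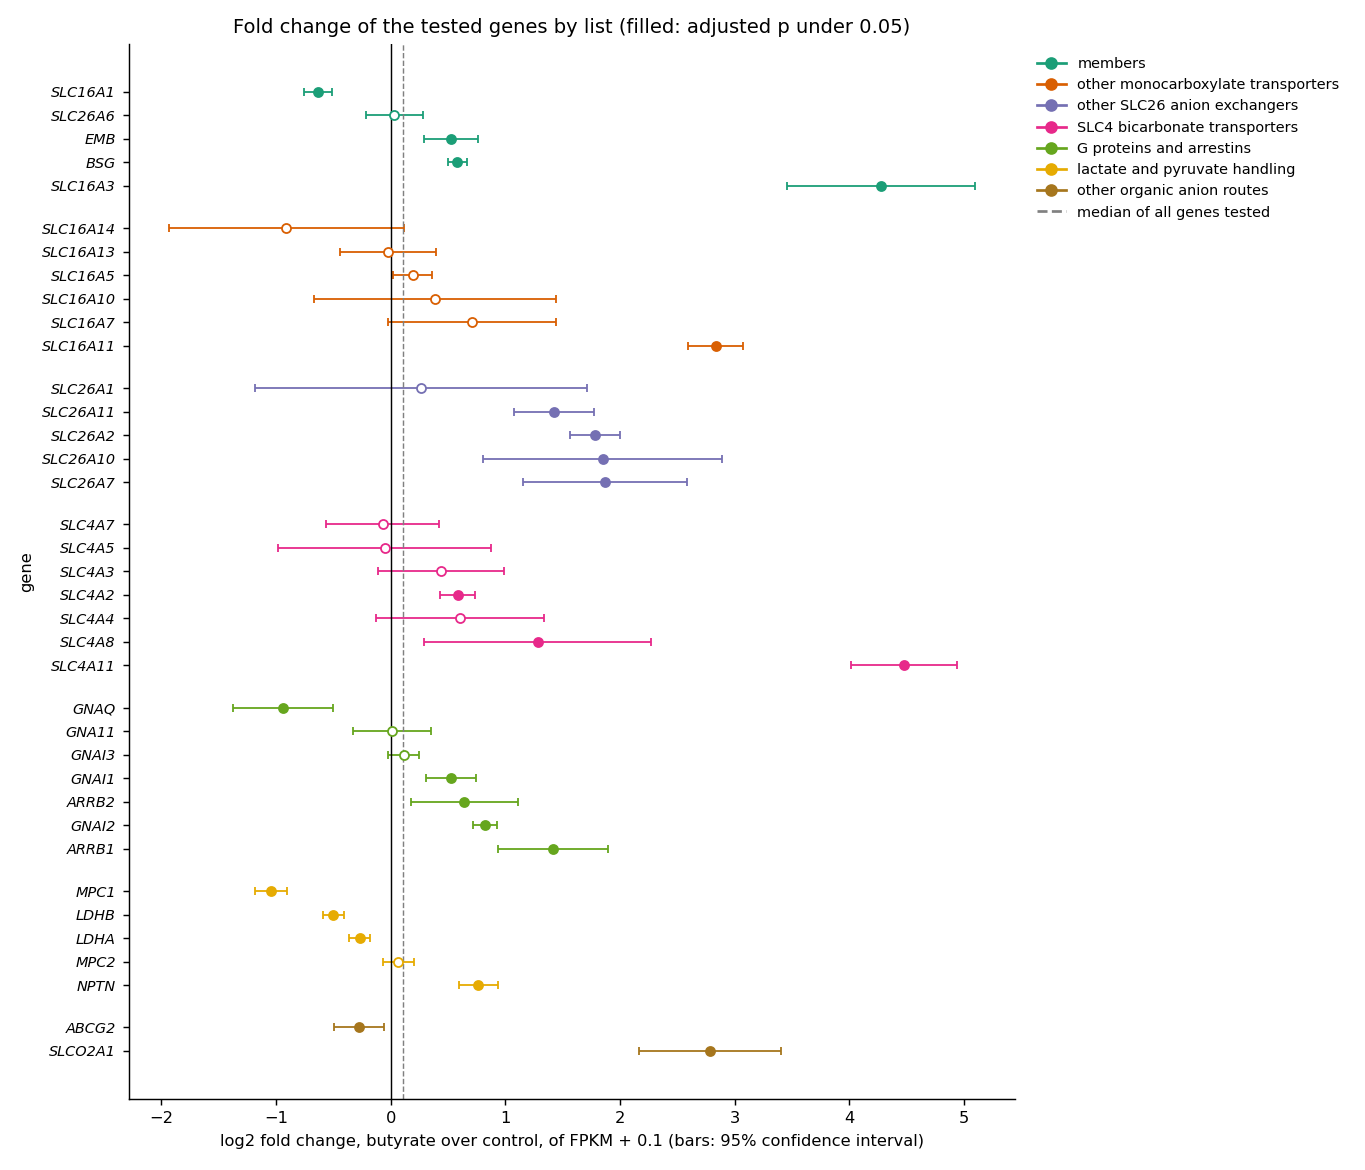
Log2 fold change of butyrate over control for the tested genes of each list, with 1 gene left out, on FPKM + 0.1, with 95% confidence intervals, filled symbols where the BH-adjusted p was under 0.05, and a dashed line at the median of all genes tested (0.10). SLC16A3 (4.28) and SLC4A11 (4.48) lie far to the right of the others, and SLC16A1 (-0.64), GNAQ (-0.94) and MPC1 (-1.05) lie to the left of 0.

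The labelled cell type was compared with marker genes. The 12 keratinocyte-like epithelial markers summed to 6311 to 6599 FPKM in control and 9090 to 9420 after butyrate, with 8 higher, 1 lower and 3 that did not pass. Most of the epithelial control sum came from KRT17, at a control mean of 3859 FPKM. KRT17 did not pass, with a log2 fold change of 0.05. EPCAM, TP63 and DSP added little to that sum, at control means of 0.540, 8.06 and 7.96 FPKM. The 8 fibroblast markers summed to 1924 to 1982 and 2789 to 3038, and all 7 that were tested rose. Most of the control sum came from COL1A1, COL1A2 and COL3A1, at control means of 1149, 459 and 313 FPKM. LUM and PDGFRA were below 1 FPKM on average in both groups. Over all genes tested, 32.5% rose and 25.9% fell. The 5 smooth muscle markers summed to 6468 to 6796 and 2849 to 3456, with 4 lower and 1 higher, and the defining MYH11 was below 1 FPKM on average in both groups. Of 7 leukocyte markers PTPRC and LYZ were listed at 0 throughout, and the sums were 5.12 to 7.15 and 7.43 to 9.52, with 1 of 2 tested higher. Of 4 endothelial markers CDH5 was listed at 0 throughout, and the sums were 1.95 to 2.07 and 6.48 to 8.43, with both tested genes higher. Transcripts of several keratins were thus abundant, and those shared with fibroblasts and contractile cells were as well. Marker genes moved in both directions across these lists, and their part in the members' values was not tested.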

How the data were processed

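RNA of 6 REPC cultures was sequenced as paired reads. The submitters' processing notes name Trim Galore 0.4.1, STAR, Cufflinks and the UMD3.1 assembly. The deposited FPKM values, which the authors made with Cufflinks per gene and culture, are normalised for transcript length and library, and are not counts. The deposited bounds of each FPKM entered no test and were used to approximate fragments and to describe single values. Each pair of bounds belongs to a single culture and does not cover the spread between cultures. The tables list no read counts, and the read totals that the study gives did not enter any value. Tables were matched on locus, starts were counted from 0 in the files and are given from 1, and 2 genes with a failed estimate were left out.

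Log2(FPKM + 0.1) was fitted with limma 3.58.1 (R 4.3.3) with a mean-variance trend over 15813 of 32183 genes, with mean FPKM of at least 0.1, and p was adjusted over all of them by the BH or Bonferroni method. Within-culture ratios and sums were compared by exact permutation over cultures. The script was tested on simulated data.

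The members and lists were chosen with earlier results of these data known. Named genes were all 10 members, up to 3 genes per list with the largest absolute log2 fold change among those that passed, and the 3 genes nearest to BSG. Genes with a LOC number or no name were left out of the search for the latter. A gene counted in its list is not reported here by name. FFAR1, CSNK1D, LOC101901998 and HCN2 were named for their position, the untested receptors for their list, and MYH11, PTPRC, LYZ and CDH5 as markers that define a cell type. KRT17, EPCAM, TP63 and DSP were named for their large or small part in the epithelial sum. COL1A1, COL1A2, COL3A1, LUM and PDGFRA were named for theirs in the fibroblast sum. Alternatives were another pseudocount, filter, scaling or variance model, a replicate block, and leaving out each culture. Other data of the study were not analysed here.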

Additional observations from a re-analysis of the deposited data

How the results depend on the processing

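Under the alternatives run, SLC16A3, BSG and EMB stayed higher and SLC16A1 lower, each with a limma BH-adjusted p under 0.05. The log2 fold changes ranged from 3.40 to 4.61 for SLC16A3 (adjusted p 1.16e-06 to 0.00358), from 0.56 to 0.71 for BSG, from 0.45 to 0.66 for EMB and from -0.66 to -0.51 for SLC16A1. The log2 ratio of SLC16A3 to SLC16A1 differed between groups by 4.03 (pseudocount of 1) to 5.26 (without control replicate 2). With no filter, SLC5A8 was also called, which made 4 members higher (log2 difference 0.82, limma BH-adjusted p = 0.000165), on about 1 fragment per butyrate culture. Control coverage of SLC16A3 and of all members under 0.1 FPKM limits what these libraries can show.

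The count of member DEGs went from 1 to 0 with a pseudocount of 0.01, with no filter and with limma without trend, and was 0 to 1 when a culture was left out. The count of DEGs among the other listed genes went from 2 to 1 with no filter, and to 3 with a pseudocount of 1, with a mean FPKM of at least 1 and without control replicate 3. The cause was not tested. Over all genes, 389 higher and 238 lower DEGs became 226 and 183 with the replicate block, 213 and 141 without trend, 47 and 50 with no filter, and 156 to 337 and 163 to 201 when a culture was left out.

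The log2 ratio of EMB to BSG differed between groups by -0.15 to 0.03 when a culture was left out, with its sign turned without control replicate 1 (0.0305) or without butyrate replicate 3 (0.018). The log2 fold change of SLC26A6 was -0.0413 without butyrate replicate 1 and -0.0397 without control replicate 1, within a range of -0.04 to 0.10 when a culture was left out, and 0.16 when rescaled to TPM. The summed FPKM difference of SLC16A1 and SLC16A3 turned to 5.35 when rescaled to TPM. Rescaling to TPM shifted the median log2 fold change of all genes by 0.14 and quantile normalisation by -0.15, and the called members kept their direction relative to either.

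Replicate numbers did not pair the cultures. Deviations of same-numbered cultures correlated at 0.0228, -0.00431 and 0.00177, and 2 of 6 cultures correlated best with their own number. With the replicate block, 3 members were higher and 1 lower, SLC16A3 stayed a DEG (log2 fold change 4.28), the ratio of SLC16A3 to SLC16A1 differed by 4.91 and that of EMB to BSG by -0.0525.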

Other observations

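HCN2, a hyperpolarisation-activated cation channel gene that lies 6670 bases from BSG, was chosen after its values had been seen. Its FPKM was 3.35, 3.17 and 2.28 in the control cultures and 29.3, 22.1 and 25.5 in the butyrate cultures, with no overlap between groups, and its log2 fold change was 3.09 (limma, BH-adjusted p = 1.07e-06) beside 0.58 for BSG.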
